A study of Mus musculus with 19 samples.

Results

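The collagen genes of the mouse were followed through RNA sequencing of cerebral cortex from male P301S/E4 mice. Members were all protein-coding genes whose symbol is Col, a number, the letter a and a number, which gave 44 genes among 55487 in the tables. They comprise 11 fibrillar chains, 6 type IV chains of basement membrane, 2 multiplexins, 6 type VI chains of beaded filaments, 9 fibril-associated chains, 3 short-chain network formers, 4 transmembrane collagens, the anchoring-fibril gene Col7a1 and 2 others. P301S/E4 names a tauopathy model, with a tau mutation of frontotemporal dementia and the E4 form of apolipoprotein E, and the labels give this genotype for every library of both groups. The promoter that drives the tau transgene is not given in the sources used here, and no library labelled as free of the transgene was analysed.

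Lemborexant, a sleep medicine that blocks both orexin receptors, was given before collection of 10 of the 19 libraries, and 9 came from the vehicle group. Dosing was by daily gavage of 30 mg/kg at zeitgeber time 13 and ran from 7.5 to 9.5 months. Controls received 0.5% methylcellulose, and the recorded age was 41 weeks in both groups. Whether each library stands for its own mouse is not in the labels, and the p-values describe only how far libraries differ, which may be technical. Libraries are named here by group and number.

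Collagens are secreted or membrane proteins whose chains wind around each other into a stiff helix. In brain, fibrillar collagens are made mainly by fibroblasts of the meninges and of the space around larger vessels. Type IV collagen forms the sheet-like scaffold of the basement membrane under endothelial cells and pericytes and at the brain surface, while several transmembrane and fibril-associated collagens are made by neurons. The question put to the data is whether transcripts of these groups differ between mice dosed with lemborexant and their controls. Orexin is the peptide that sustains wakefulness.

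Estimated reads on genes ran from 20185098 to 31795633 per library. Lemborexant 1 and 10, 3 and 8, and 4 and 9 were near-identical pairs. Chi-square divided by its degrees of freedom, comparing the counts of 2 libraries, was 3.08 to 3.66 within these pairs, where the remaining 168 pairings gave 12.2 to 274. Levels are given as CPM, reads of a gene per 1000000 reads of its library after TMM scaling. The members described in full are also given with these pairs summed, which leaves 16 units, and in that counting every tested collagen but Col26a1 had an adjusted p of 0.133 or more. Over the collagens, the median gap between the libraries of a near-identical pair was 0.19 on the log2 scale, against 0.58 for other lemborexant pairs and 0.48 for vehicle pairs. The libraries of such a pair therefore tend to fall together where libraries are ranked or counted below, and those counts hold fewer separate units. Lemborexant 7 stood apart by a summed level of 2526 CPM for thalamic and hypothalamic markers, against at most 353 CPM in the others, with 1173 CPM of Pmch and 548 CPM of Hcrt, and vehicle 7 by 1380 CPM of hepatocyte markers. Between the groups, all 8 hippocampal markers were lower with lemborexant and 2 of them were called. Thalamic and hypothalamic markers were higher in 6 of 7 tested, with 5 called (Tcf7l2, Rora, Pmch, Avp and Trh). Pmch, Avp and Trh stood at 1173, 454 and 205 CPM in lemborexant 7. In every other library they were at most 2.41, 8.30 and 9.32 CPM. All 8 striatal markers were higher and 1 was called. Of all genes edgeR called 0.953% higher and 1.65% lower, and 0% with the pairs summed. Cst7, a gene of activated microglia, was under 1 CPM in lemborexant 1 and 10 and vehicle 1 and 4, against 16.4 CPM or more in the others. In these 4 libraries Prnp was at 662 to 1036 CPM and Gfap at 430 to 582 CPM, against 1005 to 2137 CPM and 3023 to 8699 CPM in the others that carry the same genotype label, and whether the 4 match that label was not tested. Reads on ribosomal RNA genes were over 3% in lemborexant 6 and vehicle 3, 4 and 5. Markers of cortical excitatory neurons were present in every library, at 201 to 798 CPM in sum and lowest in lemborexant 7.

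Collagen transcripts were scarce. Per length, in deposited TPM (transcripts scaled to a fixed total in each library), Col9a3 had the highest median level, 6.04 TPM over the 19 libraries with a range of 0.791 to 16.9. Col19a1 followed at 5.39 TPM, Col6a1 at 4.38, Col25a1 at 4.37, Col8a1 at 3.45, Col4a1 at 3.29 and Col1a2 at 2.40. The ranges of these 7 genes overlapped, so their order is that of the medians alone. A median of 13.4% of all collagen TPM lay in Col9a3 and 9.58% in Col19a1, and Col4a1 and Col1a2 held 5.55% and 4.58%. Genes at the other end were Col6a6 at 0.0320 TPM and Col10a1 at 0.0490 TPM, and 6 members (Col6a6, Col9a1, Col10a1, Col13a1, Col17a1 and Col28a1) had too few reads to be tested. The length deposited for a gene varied between libraries, for Col3a1 from 906 to 5564 bases, and TPM levels depend on it.

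**Figure D1:**
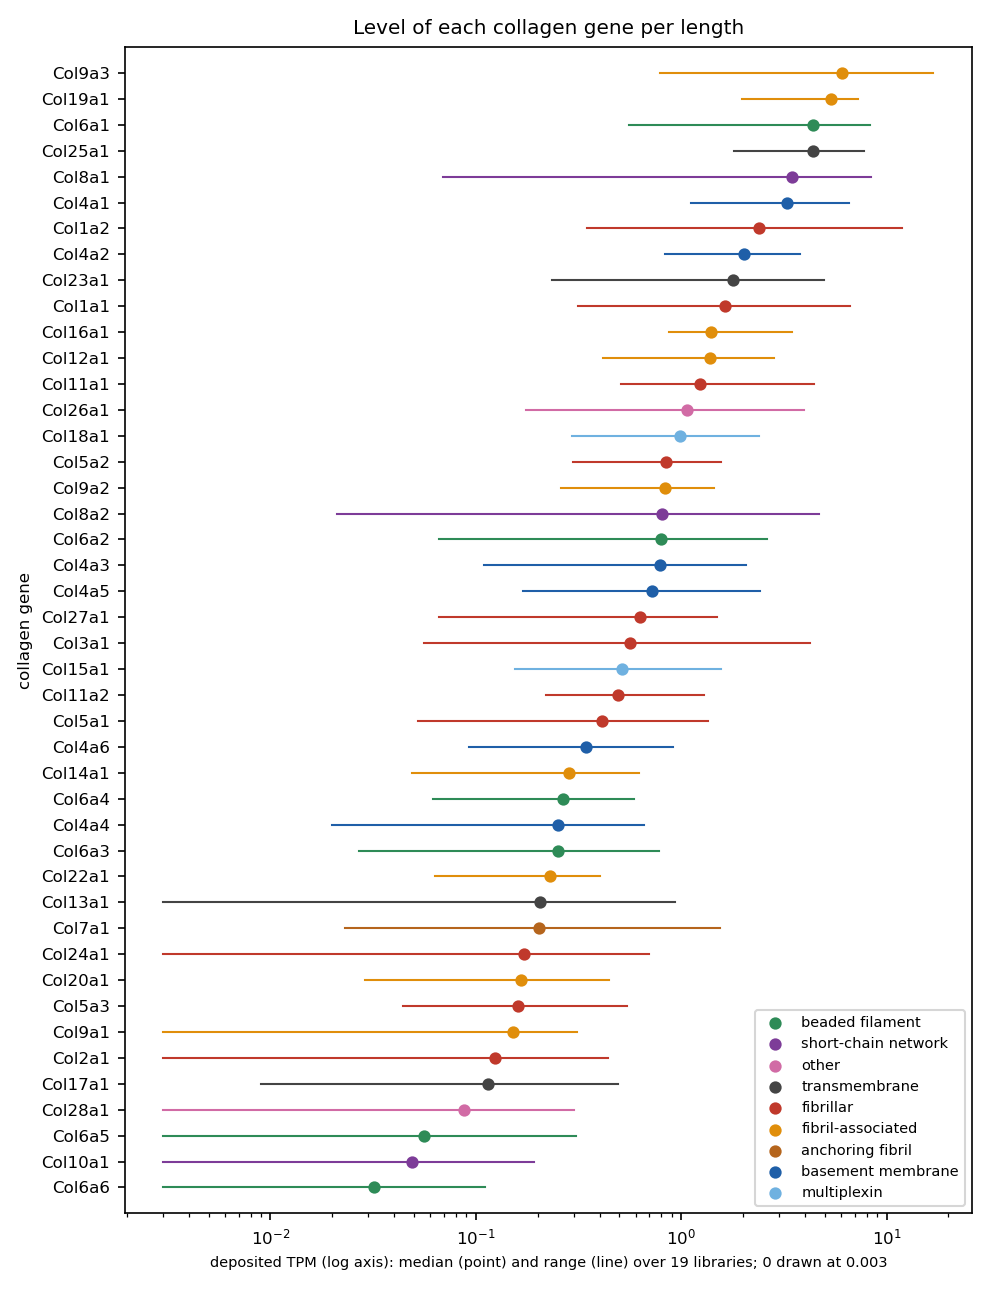
Deposited TPM of each of the 44 collagen genes (log axis), with the median as a point and the range over 19 libraries as a line, coloured by class. Col9a3 has the highest median, 6.04 TPM, and the short-chain gene Col8a1 spans from 0.0690 to 8.36 TPM.

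Most collagen genes had higher mean levels in the lemborexant libraries, and 1 passed the test. Of 38 tested members 34 had a log2 change above 0, beside 53.6% of all 19105 genes tested, and the median log2 change was 0.50, beside 0.027 for all genes. The median was 0.57 over 11 fibrillar chains (10 above 0), 0.46 over 6 type IV chains (6 above 0) and 0.52 over 5 tested type VI chains (5 above 0). Col26a1 rose and no collagen gene fell in edgeR's quasi-likelihood test at an adjusted p under 0.05. Of all genes 2.61% were called, 0.953% higher and 1.65% lower, so that 1 of 38 is near the share of all genes and is no result about collagens. At an unadjusted p under 0.05, 10 members were higher (12.2% of all genes) and Col22a1 was lower (13.5% of all genes). At an adjusted p under 0.1, 8 members were higher and 1 lower (11.2% of all genes in either direction). A log2 change of at least 1 was seen for 8 members, among all genes for 2.05%, and in no member were the groups free of overlap (0.194% of all genes). With the pairs summed, 0 collagen genes and 0% of all genes were called by edgeR, the lowest adjusted p of a collagen was 0.0933, and 10 members were higher and 1 lower at an unadjusted p under 0.05 (10.5% and 10.8% of all genes). In that counting 35 of 38 members had a log2 change above 0 (54.4% of all genes) and the median was 0.53 (0.035 for all genes).

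The count called depended on the tool. DESeq2 on the 19 libraries called 8 collagens higher (Col24a1, Col26a1, Col1a2, Col6a2, Col4a1, Col12a1, Col6a5 and Col1a1) and Col22a1 lower, of 44 collagens, beside 5.01% of all genes (2.29% higher and 2.73% lower). That share is of 37752 genes, without edgeR's expression filter, where edgeR and voom tested 19105. Genes to which DESeq2 gave no adjusted p count as not called, so the share is not comparable with theirs. Limma's voom with quality weights called 7 higher (Col3a1, Col26a1, Col1a2, Col6a2, Col12a1, Col6a5 and Col1a1) and none lower, beside 11.6% of all genes (5.91% higher and 5.69% lower), with 17 members higher and 2 lower at an unadjusted p under 0.05 (14.2% and 14.1% of all genes). Neither treats the near-identical pairs as 1 sample each.

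**Figure D2:**
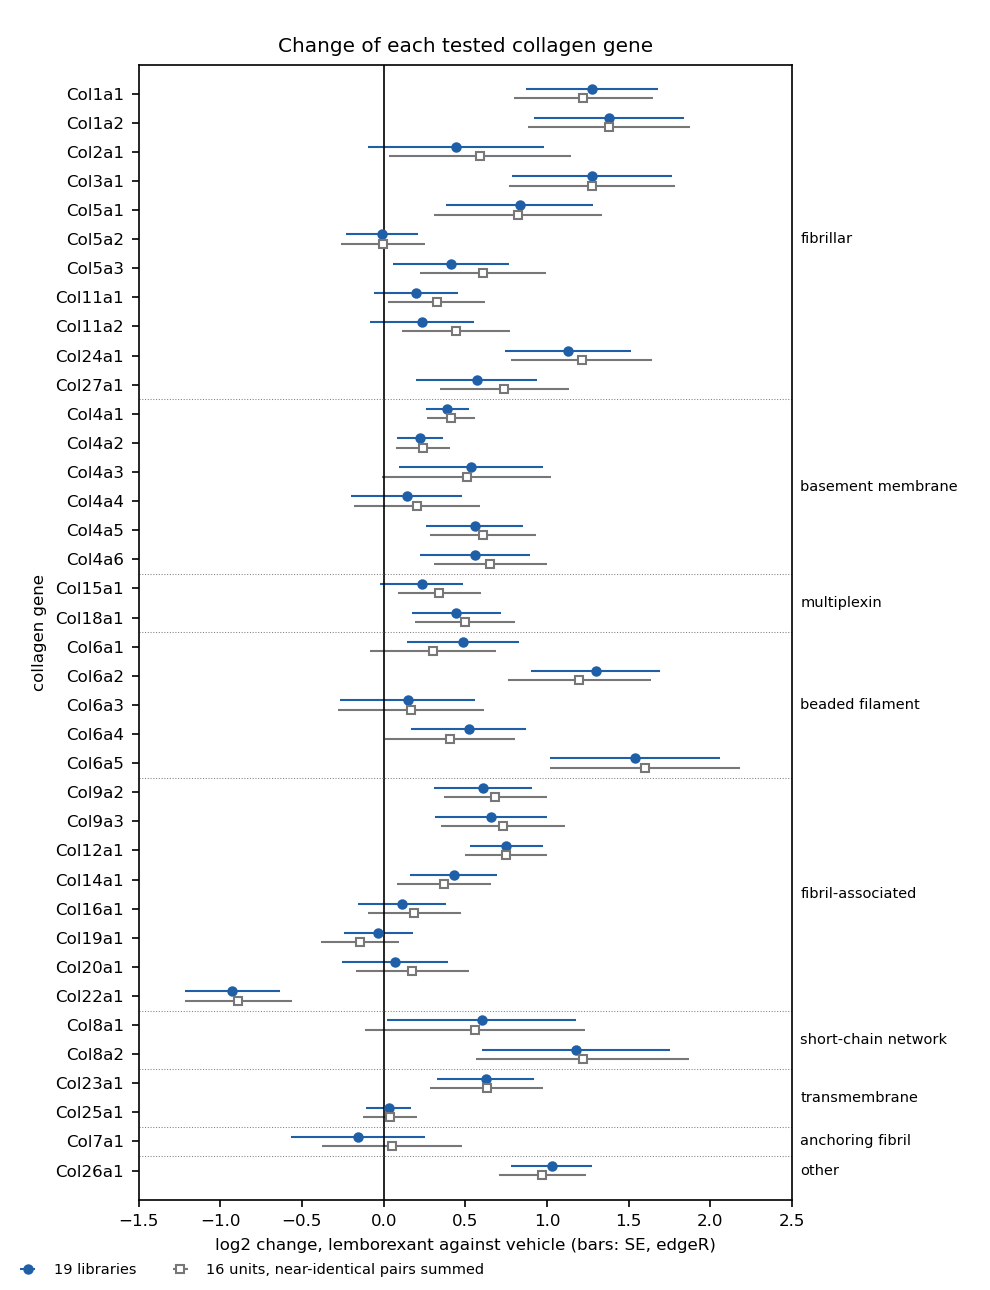
Log2 change of each of the 38 tested collagen genes, lemborexant against vehicle, with its SE, from 19 libraries (filled) and with the near-identical pairs summed (open). Of the filled points 34 lie right of 0, and Col22a1 lies farthest left at -0.93.

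Among the fibrillar collagens, the chains of types I and III, the main fibrils of meninges and of the walls of larger vessels, had the largest log2 changes among the 11 chains. The type I gene Col1a1 (ENSMUSG00000001506, GRCm38 chr11:94936224-94953042, 52 merged exons) had 3.86, 9.68 and 22.9 CPM as lowest, median and highest of 10 lemborexant libraries, and 1.74, 3.61 and 9.58 CPM among 9 vehicle libraries. Lemborexant 2, 9, 4, 3 and 8 lay above every vehicle library, and vehicle 3, 6, 7, 2, 4 and 5 lay below every lemborexant library, with overlap between. The log2 change was 1.27 ± 0.40 (SE; adjusted p = 0.0748), and 1.22 ± 0.43 (adjusted p = 0.143) with the pairs summed. Its partner chain Col1a2 (ENSMUSG00000029661, chr6:4504814-4541544, 48 merged exons) had 5.42, 12.7 and 36.2 CPM in the lemborexant group and 1.74, 4.11 and 15.5 CPM in the vehicle group. The same order held in broad terms: lemborexant 2, 9, 4 and 3 were above all vehicle libraries, and vehicle 8 lay within the upper lemborexant values. Its log2 change was 1.38 ± 0.46 (adjusted p = 0.0847), and 1.38 ± 0.50 (adjusted p = 0.148) with the pairs summed.

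The type III gene Col3a1, which makes the finer fibrils of vessel walls, ranged from 0.398 to 7.68 CPM with lemborexant and from 0.304 to 2.79 CPM with vehicle, with a log2 change of 1.28 ± 0.49 (adjusted p = 0.117), or 1.27 ± 0.51 (adjusted p = 0.177) with the pairs summed. Without vehicle 8, Col1a1 and Col1a2 were called in edgeR's test (adjusted p = 0.0423 and 0.0386), in a fit that called 6.62% of all genes, and Col1a1 was also called without lemborexant 6, at an adjusted p up to 0.147 in the other fits that left out 1 library.

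The bases upstream of the starts of Col1a2 and Col3a1 are shown because these genes had like profiles over the libraries while the letters before their starts differ. Each run is the 250 bases before the RefSeq start (GRCm38.p6), read 5′ to 3′ on the gene's strand, with capitals for TATAAA, for CCAAT and for the motif GGGCGG, each searched on both strands with overlaps counted. These lie at chr6:4505368-4505617 and chr1:45311288-45311537, both on the plus strand. The Col1a2 run lies within the gene span given above (chr6:4504814-4541544), because its RefSeq start is downstream of the start of that span. The Col3a1 run ends right before the span of its gene, which starts at 45311538.
Col1a2: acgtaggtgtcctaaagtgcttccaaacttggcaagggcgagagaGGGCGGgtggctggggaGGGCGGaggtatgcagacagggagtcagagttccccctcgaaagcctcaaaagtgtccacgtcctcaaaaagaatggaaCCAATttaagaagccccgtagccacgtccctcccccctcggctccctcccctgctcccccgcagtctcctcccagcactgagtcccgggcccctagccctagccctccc
Col3a1: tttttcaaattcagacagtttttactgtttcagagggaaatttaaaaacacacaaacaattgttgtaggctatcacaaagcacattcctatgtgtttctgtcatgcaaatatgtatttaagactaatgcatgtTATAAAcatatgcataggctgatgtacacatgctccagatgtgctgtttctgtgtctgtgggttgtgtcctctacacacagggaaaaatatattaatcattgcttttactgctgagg
The Col1a2 run is 62.0% G and C, with CCAAT 109 bases and GGGCGG 205 and 188 bases before the start. The Col3a1 run is 35.2% G and C, with TATAAA 117 bases before the start. On either strand, TATAAA was found in 12.4% of 32851 upstream windows of this length, CCAAT in 33.8% and GGGCGG in 32.7%. Of 38 windows of 35 collagens in the RefSeq table, 5, 13 and 22 held them. Col1a1 and Col26a1 are not among those windows.

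The other fibrillar chains had smaller log2 changes than those of types I and III, and Col24a1 came closest. Col11a1, a minor fibrillar chain best known from cartilage, had 2.28, 3.71 and 11.8 CPM with lemborexant and 2.45, 3.78 and 5.01 CPM with vehicle. Lemborexant 7 alone made the highest value, and all other libraries overlapped. Between the groups the log2 change was 0.20 ± 0.26 (adjusted p = 0.651), or 0.32 ± 0.30 (adjusted p = 0.532) with the pairs summed, and -0.13 without lemborexant 7. Col5a2, a chain that sets the diameter of type I fibrils, had 3.53 ± 1.13 CPM (SD, n = 10) with lemborexant and 3.56 ± 1.21 CPM (SD, n = 9) with vehicle. On the log2 scale it differed by -0.0074 ± 0.22 (adjusted p = 0.986). Col3a1 and Col5a2 lie tail to tail on chromosome 1 with 24614 bases between them. The scarce Col24a1 had 0.581 ± 0.195 CPM with lemborexant and 0.262 ± 0.192 CPM with vehicle (log2 change 1.13 ± 0.39, adjusted p = 0.0908). Of the 5 remaining fibrillar chains (Col2a1, Col5a1, Col5a3, Col11a2 and Col27a1), log2 changes lay between 0.23 and 0.83 with adjusted p of 0.243 or more.

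Summed over the 11 fibrillar genes, the lemborexant libraries held 21.8 CPM at lowest, 43.0 at the median and 88.1 at highest, and the vehicle libraries 11.4, 21.0 and 44.6 CPM. The means were 46.2 ± 20.9 CPM (SD, n = 10) and 24.9 ± 11.2 CPM (SD, n = 9), a ratio of 1.85, or 1.89 with the pairs summed. Lemborexant 2, the near-identical 9 and 4, and the near-identical 3 and 8 lay above every vehicle library. Vehicle 8 lay just under lemborexant 8, and lemborexant 1 and 10 fell among the middle vehicle values. The ratio was 1.67 without lemborexant 2, 1.61 without Col1a2 but with its partner Col1a1 kept, and 2.16 in TPM. It was 2.03 without the 4 libraries under 1 CPM of Cst7 and 1.61 without those over 3% ribosomal RNA. Of the group means, Col1a2 gave 15.8 CPM with lemborexant and 6.08 CPM with vehicle, and Col1a1 gave 11.6 and 4.79 CPM.

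**Figure D3:**
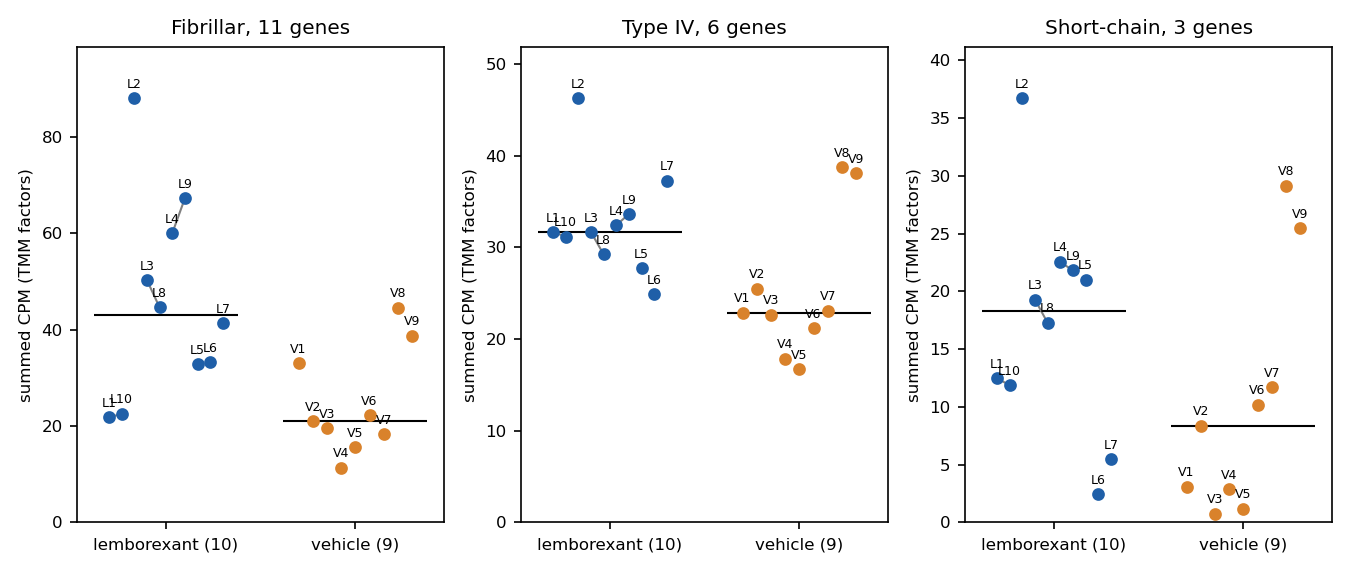
Summed CPM of the fibrillar, type IV and short-chain collagens in each library (L lemborexant, V vehicle), with group medians as bars and grey lines joining near-identical pairs. Fibrillar sums run from 11.4 CPM in vehicle 4 to 88.1 CPM in lemborexant 2, and the groups overlap in all 3 panels.

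Markers of meningeal and perivascular fibroblasts and of thalamus and hypothalamus moved with the fibrillar sum. All 10 fibroblast markers had a log2 change above 0 (53.6% of all genes), with a median of 0.90 (0.027 for all genes). In edgeR's test 1 of them, Foxd1, was called (adjusted p = 0.0437), beside 0.953% of all genes called higher. With the pairs summed edgeR called 0% of all genes. Foxd1 was scarce, at 0.0783 to 1.95 CPM, and lemborexant 7 held 1.59 CPM of it. The summed level of the 10 markers was 70.7 to 422 CPM with lemborexant (median 212) and 80.4 to 237 CPM with vehicle (median 101). Slc47a1 was at 0 in lemborexant 6 and vehicle 5, while the other 9 were detected in each library. The 6 libraries with the highest fibrillar sum, lemborexant 2, 9, 4, 3 and 8 and vehicle 8, were also the 6 with the highest fibroblast marker sum. That marker sum was 227 to 422 CPM in them against at most 203 CPM in the rest, and 4 of the 6 lowest were shared. Of the same 6 highest libraries 5 were among the 6 highest in thalamic and hypothalamic markers, and 4 of the 6 lowest were shared there too. Lemborexant 4 and 9, and 3 and 8, are near-identical pairs that rank together, so these 6 highest libraries are fewer separate units. Lemborexant 7 had the lowest fibroblast marker sum, 70.7 CPM, and yet 41.4 CPM of fibrillar collagens, of which 11.8 CPM was Col11a1. The part of either tissue in these differences was not tested, and in bulk tissue more cells of a type and more RNA per cell cannot be told apart.

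**Figure D4:**
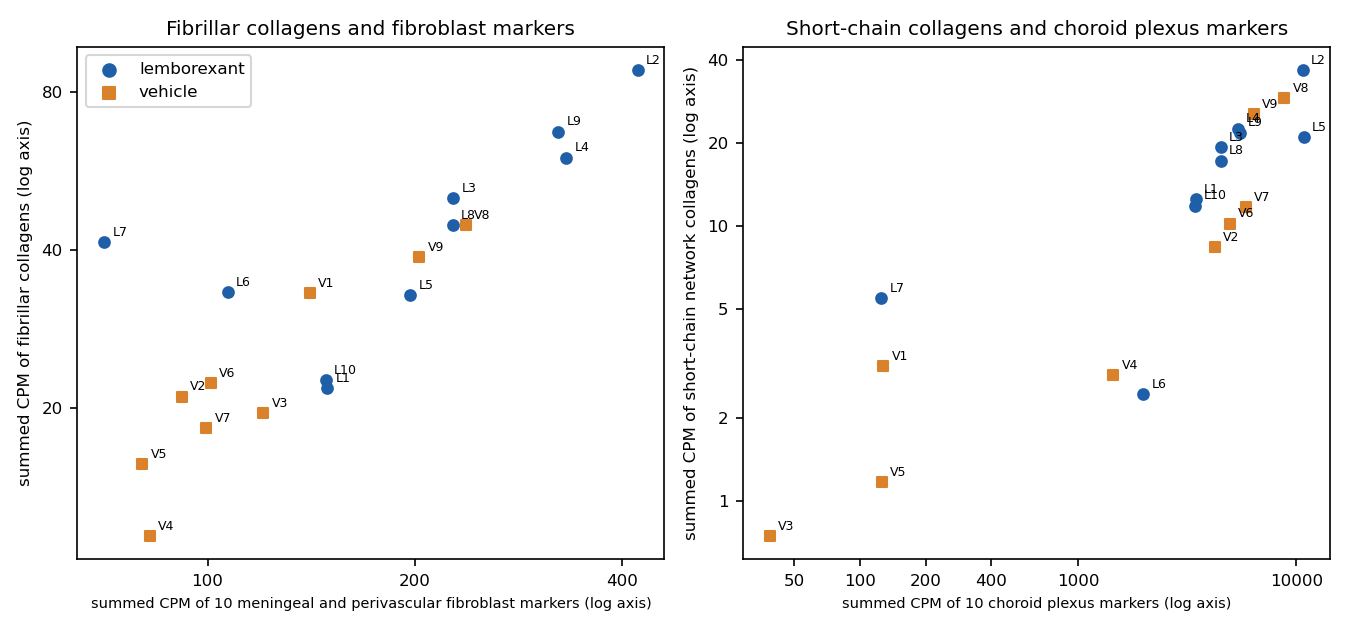
Left, fibrillar collagen sum against the summed CPM of 10 meningeal and perivascular fibroblast markers; right, short-chain collagen sum against 10 choroid plexus markers (log axes, circles lemborexant, squares vehicle). The 6 libraries highest in fibrillar collagens are the 6 highest in fibroblast markers, with the near-identical pairs 4 and 9 and 3 and 8 of lemborexant among them. The 6 lowest in short-chain collagens are the 6 lowest in choroid plexus markers, a sum made mostly of Ttr in all libraries but lemborexant 7.

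The main type IV chains are those of Col4a1 and Col4a2, which spanned 4.95 to 12.1 CPM and 5.21 to 14.7 CPM over all libraries. Col4a1 (chr8:11198423-11312826, minus strand, 54 merged exons), which with Col4a2 makes the main collagen of vascular basement membrane, had 7.28, 10.2 and 12.1 CPM with lemborexant and 4.95, 7.92 and 10.97 CPM with vehicle. Lemborexant 1, 7, 2 and 10 exceeded every vehicle library, and vehicle 6, 3 and 5 were below every lemborexant library. This gave a log2 change of 0.39 ± 0.13 (adjusted p = 0.0836), and 0.41 ± 0.15 (adjusted p = 0.148) with the pairs summed; without vehicle 9 it was called (adjusted p = 0.0484). Its partner Col4a2 had 7.002, 8.93 and 14.7 CPM with lemborexant and 5.21, 8.38 and 9.71 CPM with vehicle. Lemborexant 7 was the highest and vehicle 5 the lowest, and the groups overlapped over most of the range. The log2 change of Col4a2 was 0.22 ± 0.14 (adjusted p = 0.318), or 0.24 ± 0.17 (adjusted p = 0.400) with the pairs summed.

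Col4a1 and Col4a2 are transcribed away from each other on opposite strands, and their annotated starts overlap by 22 bases. The 30 bases at chr8:11312801-11312830 (GRCm38.p6, plus strand) are shown with the overlap in capitals, because a read from these bases could be counted for either gene where strand was not used.
Col4a1 and Col4a2: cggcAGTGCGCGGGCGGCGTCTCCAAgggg
Col4a4 and Col4a3 on chromosome 1 have the same head-to-head arrangement with 71 bases between them, as do Col4a6 and Col4a5 on the X chromosome with 1308 bases between.

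Col4a5, a chain that joins type IV networks outside the general vascular form, had 1.48, 3.43 and 6.71 CPM with lemborexant and 0.706, 2.21 and 4.56 CPM with vehicle. Lemborexant 2 was above every vehicle library, vehicle 8 and 9 were among the higher values, and vehicle 4 was lowest. On the log2 scale the change was 0.56 ± 0.30 (adjusted p = 0.236), and 0.61 ± 0.33 (adjusted p = 0.283) with the pairs summed. Col4a3 spanned 0.894 CPM in vehicle 4 to 11.6 CPM in vehicle 8, a range as wide within the vehicle group as across all libraries. Its log2 change was 0.54 ± 0.44, that of Col4a4 0.14 ± 0.34 and that of Col4a6 0.56 ± 0.34, with adjusted p of 0.295 or more.

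The type IV sum was 24.9, 31.6 and 46.3 CPM with lemborexant and 16.7, 22.9 and 38.7 CPM with vehicle. The means were 32.6 ± 5.85 CPM (SD, n = 10) and 25.2 ± 7.96 CPM (SD, n = 9), a ratio of 1.29, or 1.32 with the pairs summed. Lemborexant 2 exceeded all vehicle libraries, while vehicle 8 and 9 exceeded every lemborexant library but that one. The ratio was 1.18 without the libraries over 3% ribosomal RNA, 1.24 without those under 1 CPM of Cst7 and 1.62 in TPM. Endothelial markers summed to 207 to 372 CPM with lemborexant (median 270) and 186 to 343 CPM with vehicle (median 222), with 10 of 11 above 0 in log2 change, a median of 0.27 and none called. Pericyte and smooth muscle markers summed to 200.3 to 503 CPM (median 343) and 245 to 365 CPM (median 274), with 8 of 11 above 0, a median log2 change of 0.13 and none called. Of the 6 libraries highest in type IV collagens, 3 were among the 6 highest in endothelial markers, 3 among those in pericyte markers, and 4 each among those in fibroblast, choroid plexus, and thalamic and hypothalamic markers.

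The multiplexins sit where basement membrane meets the matrix outside it. Col18a1, the precursor of endostatin, had 2.22, 3.91 and 7.72 CPM with lemborexant and 0.981, 2.56 and 6.03 CPM with vehicle. Lemborexant 2 and vehicle 7 were the highest, and vehicle 1 was the lowest. The log2 change was 0.44 ± 0.27 (adjusted p = 0.305), and 0.50 ± 0.31 (adjusted p = 0.342) with the pairs summed. Col15a1, found around capillaries, had 0.459, 1.0003 and 1.62 CPM with lemborexant and 0.564, 0.760 and 1.13 CPM with vehicle. The lemborexant values enclosed the vehicle values on both sides, with a log2 change of 0.23 ± 0.25 (adjusted p = 0.578; 0.34 ± 0.25, adjusted p = 0.437, with the pairs summed). Added to type IV, the 2 multiplexins left the ratio of the basement-membrane sum at 1.30.

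Type VI collagen forms beaded filaments that link cells to matrix. Col6a2 (chr10:76595762-76623630) had 1.53, 2.91 and 6.50 CPM with lemborexant and 0.265, 1.21 and 2.45 CPM with vehicle. Lemborexant 9, 4, 2, 8, 3 and 10 were above every vehicle library, and vehicle 8, 2, 7, 4, 5 and 3 were below every lemborexant library. This gave a log2 change of 1.30 ± 0.39 (adjusted p = 0.0689), and 1.20 ± 0.44 (adjusted p = 0.153) with the pairs summed; it was called without lemborexant 6 and without vehicle 1. Its obligate partner Col6a1 lies 85161 bases away on the same strand and had 5.91, 17.0 and 22.7 CPM with lemborexant and 2.34, 10.9 and 21.2 CPM with vehicle. Vehicle 1 and 6 were among the higher values, and lemborexant 5, 6 and 7 among the lower. The log2 change of Col6a1 was 0.49 ± 0.34 (adjusted p = 0.371), or 0.30 ± 0.39 (adjusted p = 0.661) with the pairs summed.

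The ratio of Col6a1 to Col6a2 per length (TPM) had a median of 4.23 and a range of 3.02 to 8.28 with lemborexant, and a median of 8.55 and a range of 4.95 to 18.6 with vehicle. The highest value was that of vehicle 3, which held 6 reads of Col6a2, against 7 in vehicle 5 and 11 in vehicle 4. The ratio of Col1a1 to Col1a2 spanned less, at 0.511 to 0.832 with lemborexant and 0.547 to 1.18 with vehicle. That of Col4a1 to Col4a2 had medians of 1.84 and 1.46, and that of Col8a1 to Col8a2 medians of 2.86 and 3.45 with a range of 0.986 to 10.8. The 10.8 came from vehicle 5, with 2 reads of Col8a2, and the 0.986 from vehicle 3, with 7 reads of Col8a1 and 6 of Col8a2. Ratios from so few reads are uncertain, and the ratios were not tested. Col6a4, a type VI chain found in mouse, had 0.0927, 0.469 and 0.803 CPM with lemborexant and 0.0981, 0.352 and 0.651 CPM with vehicle, and the groups overlapped. On the log2 scale the change was 0.52 ± 0.35 (adjusted p = 0.353; 0.41 ± 0.40, adjusted p = 0.553, with the pairs summed). Col6a5 had 0.139 to 1.81 CPM with lemborexant, highest in lemborexant 7, and 0 to 0.501 CPM with vehicle (log2 change 1.54 ± 0.52, adjusted p = 0.0887), and Col6a3 had a log2 change of 0.15 ± 0.41.

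The fibril-associated collagens coat fibrils or act on their own, and 2 of them stood at opposite ends. Col12a1, which coats type I fibrils, had 2.42, 3.75 and 5.88 CPM with lemborexant and 1.22, 1.77 and 3.58 CPM with vehicle. Lemborexant 2, 9, 1, 3, 6 and 4 exceeded every vehicle library, and 5 vehicle libraries were below every lemborexant one. Between the groups the log2 change was 0.75 ± 0.22 (adjusted p = 0.0646), and 0.75 ± 0.25 (adjusted p = 0.133) with the pairs summed; it was called without vehicle 1, 8 or 9, with a lowest adjusted p of 0.0359. Col22a1, known from tissue junctions such as those of muscle and tendon, was the reverse: 0.325, 0.519 and 0.902 CPM with lemborexant and 0.403, 0.751 and 1.79 CPM with vehicle. Vehicle 4, 5, 1 and 7 exceeded every lemborexant library, and the other vehicle libraries overlapped with that group. Its log2 change was -0.93 ± 0.29 (adjusted p = 0.0735), and -0.89 ± 0.33 (adjusted p = 0.156) with the pairs summed. A library held 8 to 39 reads of Col22a1, and 16 of its bases overlap Gm16308 on the opposite strand.

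Col9a3, a chain of the type IX collagen of cartilage, had 4.04, 9.13 and 18.5 CPM with lemborexant and 1.23, 5.51 and 13.3 CPM with vehicle. Lemborexant 2 was highest and vehicle 1 lowest, and most libraries of both groups overlapped. The log2 change was 0.66 ± 0.34 (adjusted p = 0.230; 0.73 ± 0.38, adjusted p = 0.268, with the pairs summed). Its exons overlap those of Tcfl5 on the opposite strand by 234 bases. Col19a1, a collagen made by neurons, had 5.51, 15.6 and 20.1 CPM with lemborexant and 8.37, 17.0 and 21.5 CPM with vehicle. Lemborexant 7 was lowest, and the groups otherwise overlapped. This gave a log2 change of -0.03 ± 0.21 (adjusted p = 0.940; -0.14 ± 0.24, adjusted p = 0.741, with the pairs summed). Col16a1 had 0.650, 1.66 and 3.28 CPM with lemborexant and 0.988, 1.34 and 2.25 CPM with vehicle. Lemborexant 7 was the highest library and lemborexant 1 and 10 the lowest, with a log2 change of 0.11 ± 0.27 (adjusted p = 0.819; 0.19 ± 0.28, adjusted p = 0.715, with the pairs summed). Col9a2, Col14a1 and Col20a1 had log2 changes of 0.61, 0.43 and 0.07, with adjusted p of 0.206 or more.

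The short-chain collagens of type VIII, which form hexagonal networks under endothelia, varied more than any other class. Col8a1 had 1.85, 14.4 and 24.6 CPM with lemborexant and 0.309, 6.62 and 24.3 CPM with vehicle. Both groups held low libraries (lemborexant 6 and 7; vehicle 1, 3, 4 and 5) and high ones (lemborexant 2; vehicle 8 and 9). Between the groups the log2 change was 0.60 ± 0.58 (adjusted p = 0.525), and 0.56 ± 0.67 (adjusted p = 0.637) with the pairs summed. Its partner Col8a2 had 0.510, 3.71 and 11.8 CPM with lemborexant and 0.0868, 1.66 and 4.68 CPM with vehicle. The 6 libraries lowest for Col8a1 were also the 6 lowest for Col8a2, and lemborexant 2 was highest for both. On the log2 scale the change was 1.18 ± 0.57 (adjusted p = 0.200), and 1.22 ± 0.65 (adjusted p = 0.281) with the pairs summed.

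The 250 bases before the starts of the partner chains Col8a1 (chr16:57754738-57754987, minus strand) and Col8a2 (chr4:126286544-126286793, plus strand) are shown in the same way, since these genes had like profiles over the libraries.
Col8a1: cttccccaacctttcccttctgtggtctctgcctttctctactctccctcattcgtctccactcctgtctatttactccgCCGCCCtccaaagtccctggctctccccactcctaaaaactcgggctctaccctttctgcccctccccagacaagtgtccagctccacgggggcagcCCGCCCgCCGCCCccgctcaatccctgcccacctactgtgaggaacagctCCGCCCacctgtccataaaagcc
Col8a2: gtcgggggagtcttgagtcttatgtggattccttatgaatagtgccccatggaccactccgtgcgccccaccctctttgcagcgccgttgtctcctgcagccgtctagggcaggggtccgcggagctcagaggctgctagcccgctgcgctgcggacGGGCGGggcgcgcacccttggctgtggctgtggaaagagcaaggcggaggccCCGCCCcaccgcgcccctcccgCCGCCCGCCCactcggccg
Each holds 4 copies of GGGCGG on either strand, and neither holds TATAAA or CCAAT.

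The short-chain sum ran from 0.750 CPM in vehicle 3 to 36.8 CPM in lemborexant 2, and choroid plexus markers moved with it. The 6 libraries with the lowest sum (vehicle 3, 5, 4 and 1 and lemborexant 6 and 7, at 0.750 to 5.48 CPM) were the 6 lowest in choroid plexus markers, at 38.6 to 1986 CPM against 3444 to 10820 CPM in the rest. Among these 6 are all the libraries with over 3% ribosomal RNA, lemborexant 6 and vehicle 3, 4 and 5. Of the 10 choroid plexus markers all had a log2 change above 0 (median 0.65) and none was called, and the group medians of their sum were 4503 and 4233 CPM. Ttr alone made most of that sum in all libraries but lemborexant 7 (59.2 of 125 CPM), for example 10021 of 10715 CPM in lemborexant 2. Neither the part of choroid plexus tissue nor that of library quality in the levels of Col8a1 and Col8a2 was tested.

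Transmembrane collagens sit in the cell membrane and can be shed from it. Col25a1, a collagen of neurons found in amyloid plaques, had 9.37, 15.7 and 24.1 CPM with lemborexant and 12.0005, 16.4 and 19.1 CPM with vehicle. Lemborexant 7 was highest and lemborexant 6 lowest, with the vehicle libraries between. Its log2 change was 0.03 ± 0.14 (adjusted p = 0.906; 0.04 ± 0.16, adjusted p = 0.899, with the pairs summed). Col23a1 had 4.11, 7.62 and 16.7 CPM with lemborexant and 1.30, 5.09 and 11.4 CPM with vehicle. Lemborexant 7 was again highest, and vehicle 5 was lowest. The log2 change of Col23a1 was 0.63 ± 0.30 (adjusted p = 0.189; 0.63 ± 0.35, adjusted p = 0.293, with the pairs summed).

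Col26a1 (ENSMUSG00000004415, chr5:136741759-136883209, minus strand, 14 merged exons), a small collagen with an EMI domain, was the 1 member called. It had 1.10, 1.77 and 3.14 CPM with lemborexant and 0.423, 0.781 and 1.69 CPM with vehicle. Lemborexant 4, 8, 2, 9 and 3 were above every vehicle library, 7 vehicle libraries were below every lemborexant library, and vehicle 8 and 1 lay within the lemborexant range. The log2 change was 1.03 ± 0.25 (adjusted p = 0.0354), and 0.97 ± 0.27 (adjusted p = 0.0933) with the pairs summed. When each library was left out in turn the log2 change stayed between 0.91 and 1.20, and the call was lost without lemborexant 2, 4, 8 or 9 or without vehicle 2, 3, 4, 5, 6 or 7, at adjusted p up to 0.0733. It was 1.10 (adjusted p = 0.0368) without the libraries under 1 CPM of Cst7 and 0.97 (adjusted p = 0.188) without those over 3% ribosomal RNA. Leaving out 1 library of a near-identical pair keeps the other in the fit. With 1 unit left out of the summed pairs, the log2 change was 0.85 to 1.14. Of 16 such edgeR fits 1 called Col26a1, that without lemborexant 1 and 10, and the adjusted p reached 0.206. Col7a1, the anchoring fibril of skin, had 0.108, 0.315 and 1.07 CPM with lemborexant and 0.130, 0.464 and 0.736 CPM with vehicle, and the groups overlapped. This gave a log2 change of -0.16 ± 0.41 (adjusted p = 0.838), and 0.05 ± 0.43 (adjusted p = 0.950) with the pairs summed.

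Single libraries set the extremes of many members. Lemborexant 2 was the highest library for 14 of the 38 tested collagens and lemborexant 7 for 10, while vehicle 5 was the lowest for 11 and vehicle 4 for 9. Those for which lemborexant 7 was highest included Col11a1, Col4a2, Col23a1 and Col25a1. Its thalamic and hypothalamic marker sum, mostly Pmch, Hcrt, Avp and Trh, was the highest as well, and the part of these tissues in the collagen values was not tested. Vehicle 4 and 5 are among the libraries with over 3% ribosomal RNA. Without those 4 libraries 0 collagens were called by edgeR (9 higher and 0 lower at an unadjusted p under 0.05, beside 7.24% and 6% of all genes, of which 0% were called) and the median log2 change was 0.34 (0.024 for all genes).

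**Figure D5:**
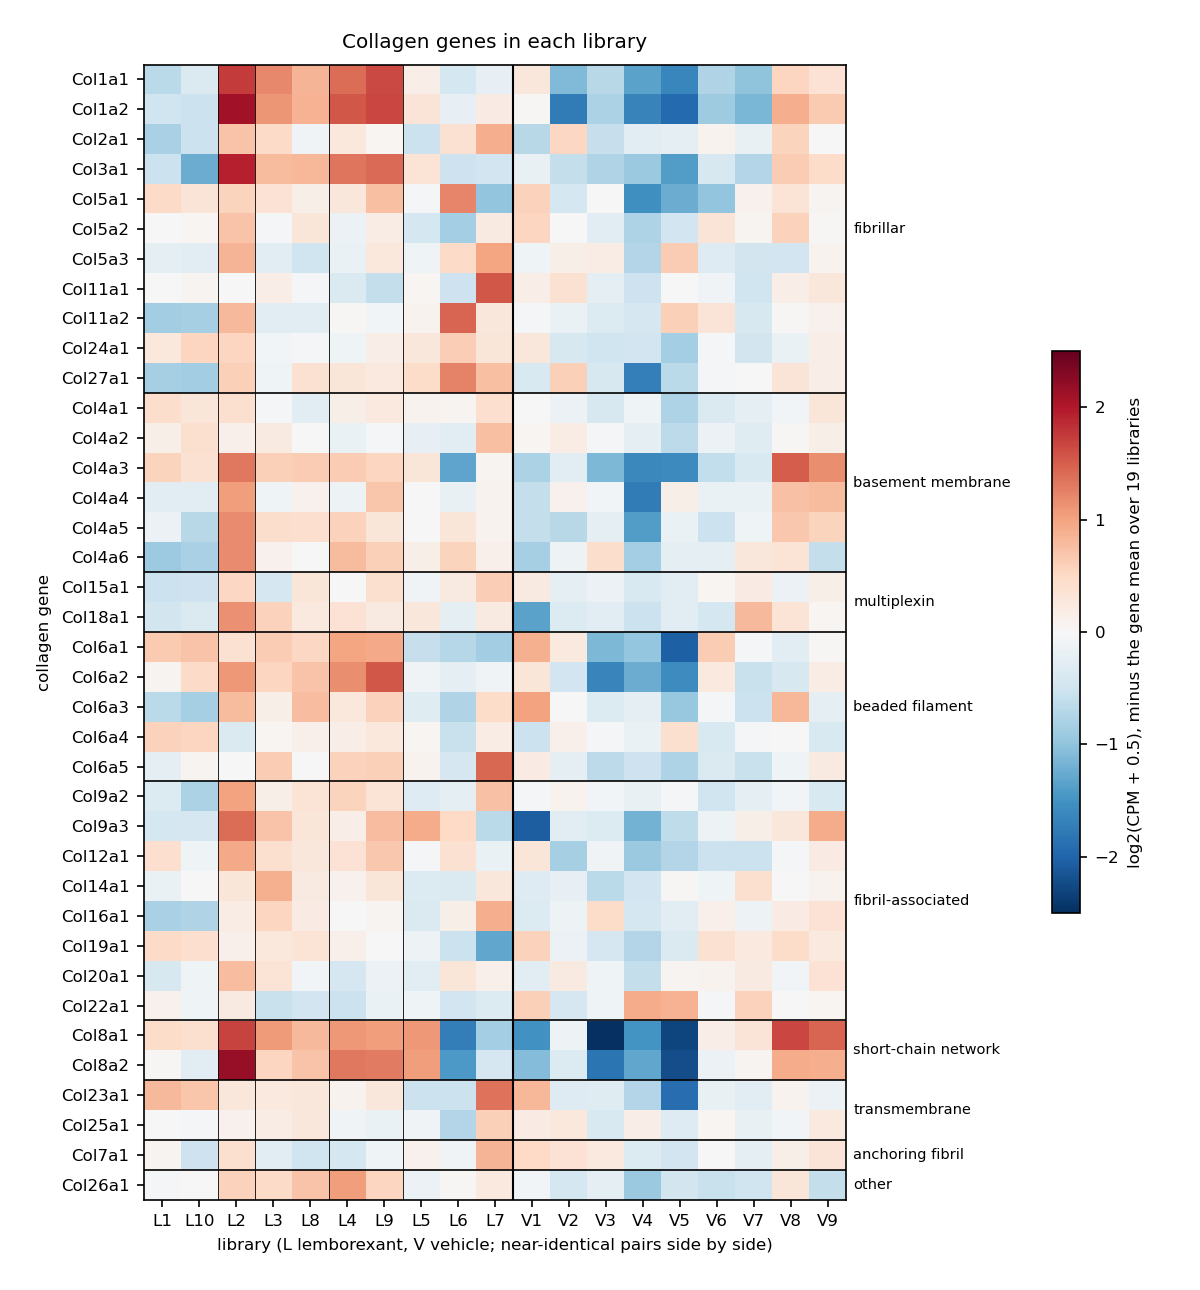
Log2 (CPM + 0.5) of the 38 tested collagen genes in 19 libraries, each gene centred on its mean, with near-identical pairs side by side and classes separated by lines. Lemborexant 2 is the highest library for 14 genes, and Col1a1, Col1a2, Col8a1 and Col8a2 are high there and low in vehicle 5.

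The library numbers in the labels fall into 2 ranges, 859 to 933 and 1064 to 1602, and what the ranges stand for is not given. Within 1064 to 1602 (7 against 7 libraries) 34 of 36 tested collagens had a log2 change above 0, with a median of 0.61 (54.1% of all genes), and within 859 to 933 (3 against 2 libraries) 20 of 41 did, with a median of -0.0032 (49.8% of all genes). For Col1a2 the log2 changes were 2.09 and 0.16, for Col1a1 1.63 and 0.51, for Col26a1 1.15 and 0.71 and for Col6a2 1.24 and 1.28. A test of the difference between the ranges called 0 genes in edgeR (673 of all genes and 4 collagens at an unadjusted p under 0.05), and the lowest adjusted p of a collagen was 0.920. The near-identical pairs each join a library of one range to one of the other, and this test counted their libraries as separate. All 3 lemborexant libraries of 859 to 933 belong to such pairs. In the vehicle group the fibrillar sums were 44.6 and 38.8 CPM in libraries 8 and 9, of that range, and 11.4 to 33.1 CPM in libraries 1 to 7. With 3 against 2 libraries in 859 to 933, its lack of calls does not show that the ranges are alike.

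Genes that make, accompany, bind or degrade collagen were counted in lists, to be read beside the shares of all genes: 53.6% above 0, 12.2% higher and 13.5% lower at an unadjusted p under 0.05, and 0.953% called higher and 1.65% lower. Of 30 tested enzymes of collagen synthesis and processing 22 had a log2 change above 0, with a median of 0.10, and none was called (1 higher and 1 lower at an unadjusted p under 0.05). Pcolce, an enhancer of procollagen cleavage, had a log2 change of 0.96 ± 0.41 (adjusted p = 0.150), the channel gene Tmem38b -0.23 ± 0.11 and the prolyl isomerase gene Ppib -0.20 ± 0.10. Of 18 other basement-membrane proteins 17 were above 0, with a median of 0.42, and none was called (4 higher at an unadjusted p under 0.05). Here the laminin chain gene Lama4 had 0.82 ± 0.25 (adjusted p = 0.0689), the linker Nid1 0.78 ± 0.28 and Lama1 1.02 ± 0.40 in log2 change.

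Of 20 fibril-associated matrix genes 16 were above 0, with a median of 0.37, and 2 were called (9 higher and 2 lower at an unadjusted p under 0.05). Fbln5, which organises elastic fibres, rose by a log2 change of 0.89 ± 0.20 (adjusted p = 0.0317), and Thbs1, a thrombospondin, by 1.30 ± 0.35 (adjusted p = 0.0496), while the proteoglycan gene Fmod had 1.64 ± 0.58 (adjusted p = 0.0961). With the pairs summed the adjusted p of Fbln5 was 0.0780 and that of Thbs1 0.101. Of 10 tested collagen receptors 9 were above 0, with a median of 0.45 and none called (4 higher at an unadjusted p under 0.05). Adgrg6, a receptor of type IV collagen, had a log2 change of 1.03 ± 0.33 (adjusted p = 0.0780), the integrin chain Itga1 0.50 ± 0.17 and Adgrg1, a receptor of type III collagen, 0.36 ± 0.13. Of 11 tested collagen-degrading enzymes and their inhibitors 9 were above 0, with a median of 0.33 and none called (4 higher at an unadjusted p under 0.05). The inhibitors Timp3 and Timp2 had log2 changes of 0.47 ± 0.18 and 0.33 ± 0.13, and the protease Ctsk 0.56 ± 0.23. With the pairs summed, edgeR called 0 genes in each of these 5 lists.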

How the data were processed

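Per the labels' protocols, cortex RNA was extracted with TRIzol and columns, and libraries were made with a SMARTer Ultra Low kit. Per the submitters' processing notes, bcl2fastq and DRAGEN 3.9.3-8 were used on GRCm38. No source used here gives the strand setting or annotation release. The deposited tables hold an estimated count and a TPM value per gene, per the file headers. Estimated counts were rounded for all tests.

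Symbols came from GENCODE M21, which named 55227 of 55487 genes. Groups were compared by quasi-likelihood tests in edgeR 4.0.16 (R 4.3.3) with TMM factors and edgeR's expression filter, two-sided, adjusted by Benjamini-Hochberg over 19105 genes, with a threshold of 0.05. CPM values carry TMM factors. SE is the size of the log2 change divided by the square root of F. Sums over genes have no test. Given in full are, in each class, up to 3 tested members with the highest mean TPM, members called in either counting, and the 5 tested members with the smallest p. From each list around collagen the 3 tested genes with the smallest p are named, and Col3a1, Col5a2, Col24a1, Col4a3 and Col6a5 were chosen after their values were seen. Members, classes and lists were chosen with earlier results of these data known.

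In a test on data simulated for 10 against 9 libraries (18839 genes), 32% of genes changed 1.5-fold and 56% of those changed 2-fold were recovered, with 5 false among 93 calls. The simulated libraries were independent draws without near-identical pairs, so these rates do not describe data that hold such pairs. At 20185098 reads, 1 CPM is 20 reads. Alternatives were DESeq2 1.42.0, limma 3.58.1, other factors and filters, TPM with pseudocounts of 1 and 0.1, library number ranges and left-out libraries. Leaving out libraries by Cst7 or ribosomal RNA was chosen after seeing the data.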

Additional observations from a re-analysis of the deposited data

Results flagged for a closer look

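Of 48 groups checked for a library that stands apart (the 22 collagens given in full and the fibrillar and type IV sums, in each treatment group), 1 was marked, where chance marks about 1 in 20. Col11a1 reached 11.8 CPM in lemborexant 7, against 2.28 to 4.26 CPM in the other lemborexant libraries, a gap of 0.638 of the group's range. That library also held 2526 CPM of thalamic and hypothalamic markers, of which Pmch, Hcrt, Avp and Trh gave 1173, 548, 454 and 205 CPM. Tcf7l2 and Prkcd, of the same list, were at 73.7 and 10.7 CPM there, against 134.5 and 75.6 CPM in lemborexant 2. The part of these tissues in the level of Col11a1 was not tested.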

How the results depend on the processing

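The number of collagens called higher (1) was 0 with the pairs summed, with no expression filter, on either TPM scale, within either library number range, without lemborexant 7 and vehicle 7, without libraries over 3% ribosomal RNA, and without those under 1 CPM of Cst7 with pairs summed. It was 8 with DESeq2 and 8 at a threshold of 0.1, 7 with voom, 0 to 4 with 1 library left out and 0 to 1 with 1 unit left out of the summed pairs. The number called lower (0) was 1 with DESeq2 and 1 at the threshold of 0.1. The most calls, 4, came without vehicle 8 (Col26a1, Col1a2, Col12a1 and Col1a1), and 3 came without lemborexant 6, vehicle 1 or vehicle 9. Of all genes 6.62%, 5.95%, 4.39% and 2.97% were called in these 4 fits, against 2.61% with all libraries. RLE factors, the range as a covariate and leaving out low-Cst7 libraries kept 1. The ratio of the fibrillar sum was 1.67 to 2.06 and that of the type IV sum 1.23 to 1.39 with 1 library left out. The median over all genes moved to 0.18 and 0.20 on the TPM scales, so collagen medians there, 0.54 and 0.83, are to be read against these.

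Among the members given in full, directions reversed for some that were not called. Within 859 to 933 the log2 change was -0.43 for Col11a1, -0.0032 for Col4a1, -0.59 for Col4a5, -0.15 for Col18a1, -0.35 for Col9a3, -0.49 for Col16a1, -0.81 for Col8a1, -0.22 for Col8a2 and -0.056 for Col25a1. Without lemborexant 7 and vehicle 7 it was -0.18 for Col11a1, -0.080 for Col16a1, 0.088 for Col19a1 and -0.071 for Col25a1. With voom it was -0.16 for Col11a1 and -0.027 for Col25a1, and on the TPM scales 0.12 and 0.16 for Col19a1. Col7a1 was at 0.054 with the pairs summed, 0.26 within 1064 to 1602 and 0.19 without low-Cst7 libraries with pairs summed. With 1 library left out Col11a1 ranged from -0.13 to 0.28, Col16a1 from -0.063 to 0.21, Col19a1 from -0.11 to 0.062 and Col25a1 from -0.053 to 0.10. With 1 unit left out of the summed pairs they were -0.14 to 0.43 for Col11a1, -0.060 to 0.33 for Col16a1, -0.092 to 0.14 for Col25a1 (-0.00335 without vehicle 3) and -0.36 to 0.21 for Col7a1 (0.058 without lemborexant 5, 0.11 without lemborexant 6, 0.029 without vehicle 6 and 0.068 without vehicle 8). The causes were not tested. No paired analysis was possible because the labels give no replicate numbers shared between the groups. The scarcest member given in full, Col6a4, had 2 to 21 reads per library.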
